A study of Mus musculus with 8 samples.

Results

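Mitochondrial ribosomal proteins were taken as all genes of the count table whose symbol is Mrpl or Mrps followed by a number and at most 1 letter. These were 78 of 53655 gene symbols, 49 of them Mrpl genes, named for the large subunit of the mitochondrial ribosome, and 29 Mrps genes, named for the small subunit. The mitochondrial ribosome (mitoribosome) sits in the mitochondrial matrix and makes the few proteins encoded by mitochondrial DNA, all of them core subunits of the respiratory chain and of ATP synthase. Its ribosomal RNAs are transcribed inside the mitochondrion, while its proteins are encoded in the nucleus, made on cytoplasmic ribosomes and imported. Some of these proteins have counterparts in bacterial ribosomes and others are specific to mitochondria.

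RNA was measured in tuft cells, chemosensory cells of the gut lining, sorted from the small intestine of naïve mice with the genotype Il25-RFP/+;Chat-GFP(Tg+), so every library carries both reporters. All cells were sorted as CD45-, EPCAM+ and Il25-RFP+. They were divided by the reporter for choline acetyltransferase, the enzyme that makes acetylcholine, into Chat-neg (Chat-GFP-) and Chat-pos (Chat-GFP+) gates with 4 libraries each, and the comparison asks how the gates differ. GFP marks transgene activity rather than Chat protein, the age of the mice is not in the labels, and the labels do not tie libraries to animals, so a p-value reflects how far these libraries scatter, and that scatter may be partly technical.

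Named genes held 87642 to 1176880 counts in the Chat-neg libraries and 1757401 to 2541955 in the Chat-pos libraries, and Chat-neg replicate 1 was the shallowest. Every Chat-neg library was shallower than every Chat-pos library, so depth and gate cannot be told apart. Of 12 tuft cell marker genes, 6 rose in Chat-pos by the quasi-likelihood test of edgeR (Benjamini-Hochberg adjusted p). Chat is among the 12, and because its reporter defined the gates it is not separate evidence. The summed level of the 12, Chat included, was 9889 to 17322 counts scaled to 1000000 per library (CPM) in Chat-neg. In Chat-pos it was 22972 to 24048 CPM. Several measures of other cells and of background differed between the gates or among libraries. Olfactory and vomeronasal receptor genes, 1437 in number and used as a measure of background reads, summed to 392 to 4200 CPM in Chat-neg and 160 to 315 CPM in Chat-pos. The 9 T cell markers summed to 167 to 357 CPM in Chat-neg and to 279 CPM in Chat-pos replicate 2, against 3.37 to 10.4 CPM in the other Chat-pos libraries. The 9 Paneth cell markers summed to 48363 and 31023 CPM in Chat-pos replicates 2 and 3, against 817 to 6420 CPM elsewhere. The 7 goblet cell markers summed to 512 to 5526 CPM in Chat-neg and 306 to 1571 CPM in Chat-pos, and 1 of them fell. The 8 enteroendocrine markers summed to 593 to 1645 CPM in Chat-neg and 1213 to 1919 CPM in Chat-pos, and the 1 that was tested rose. The 9 enterocyte markers summed to 21826 to 46101 CPM in Chat-neg and 33849 to 55478 CPM in Chat-pos, above the tuft sum in every library. Proliferation markers summed to 144 to 571 CPM in Chat-neg and 86.5 to 236 CPM in Chat-pos. Stem cell markers summed to 116 to 1038 and 139 to 1138 CPM. No tested T cell, Paneth, enterocyte, proliferation or stem marker passed in edgeR. The part of these differences in the results below was not tested.

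Genes for mitochondrial ribosomal proteins were mostly lower in Chat-pos tuft cells. Of the 78 genes, 77 had enough counts to be tested, and 10 of these 77 (13.0%) fell in Chat-pos at an adjusted p under 0.05 in edgeR's quasi-likelihood test. Over all 8919 genes tested, 2.87% fell and 3.62% rose. None of the 77 rose by that test, while 1 (Mrpl43) was higher at an unadjusted p under 0.05, in DESeq2 and in limma-voom. The log2 difference, Chat-pos minus Chat-neg, was below 0 for 60 of the 77 genes, against 51.5% of all genes. Its median over the 77 was -0.41, against -0.02 over all genes tested. In bulk samples such as these, fewer cells of a type and less RNA per cell cannot be told apart.

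The 10 genes that fell were Mrpl23, Mrpl37, Mrps28, Mrpl13, Mrpl35, Mrpl12, Mrpl42, Mrpl52, Mrpl34 and Mrpl54, with log2 differences from -1.55 to -0.73. For 11 genes every Chat-pos library lay below every Chat-neg library, where 5.42% of all genes did so. They were the called genes other than Mrpl13, together with Mrpl21 (-0.63 ± 0.22, edgeR adjusted p = 0.0833) and Mrpl40 (-0.60 ± 0.25, edgeR adjusted p = 0.163). The opposite held for Mrpl43 alone, where 8.58% of all genes were higher without overlap. At an unadjusted p under 0.05, 26 genes were lower and 1 higher, against 9.88% and 10.9% of all genes. The count of 10 became 5 without Chat-neg replicate 4 and 4 without the Paneth-rich Chat-pos replicates 2 and 3. Over all genes the number that fell dropped from 256 to 124 and 86 in the same fits. The 4 were Mrpl13, Mrpl23, Mrpl37 and Mrps28.

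**Figure D1:**
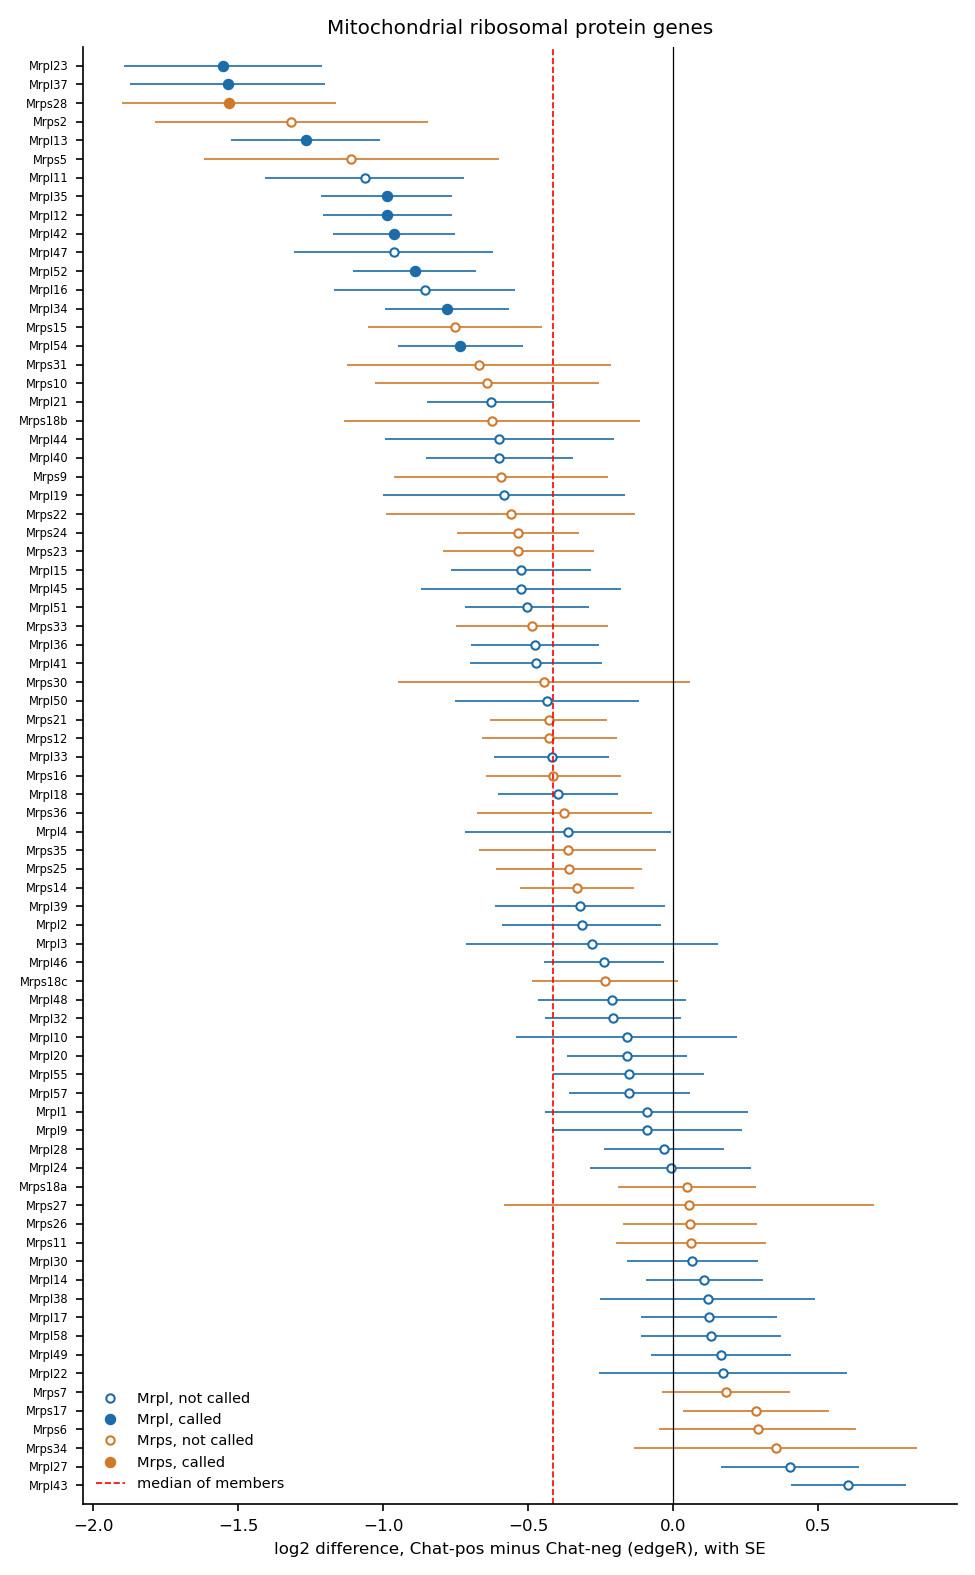
Log2 difference between Chat-pos and Chat-neg (x axis, with SE) for each of the 77 genes tested (y axis), Mrpl in blue and Mrps in orange, filled where called, with the median of the 77 as a dashed line. The points lie below 0 for 60 genes, the 10 filled points are all below 0, and Mrpl43 has the highest value.

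The depth of the shallow library limits what can be read gene by gene. Summed over the 78 genes, replicates 1 to 4 of Chat-neg held 375, 4719, 7748 and 4318 counts and Chat-pos replicates 1 to 4 held 7613, 10688, 10198 and 13274. In Chat-neg replicate 1 the median gene had 3 counts and 8 genes had none. There 3 counts, taken as an upper limit for a count of 0 under counting error alone, came to 34.9 CPM. In the other libraries that limit was 1.26 to 4.81 CPM. When Chat-neg replicate 1 was set aside, 25 of the 77 genes were lower in all Chat-pos libraries than in the other Chat-neg libraries and 1 was higher, against 9.77% and 10.3% of all genes.

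Mrpl23, Mrpl37 and Mrps28 had the lowest log2 differences. Mrpl23 (chr7:142532686-142540747, plus strand, GRCm38) encodes a large-subunit protein at the mouth of the tunnel through which the new chain leaves. It stood at 46.5, 26.8, 39.7 and 62.6 CPM in Chat-neg replicates 1 to 4 and at 8.71, 18.4, 11.8 and 18.5 CPM in Chat-pos replicates 1 to 4. Every Chat-pos library was below every Chat-neg library, and the log2 difference was -1.55 ± 0.34 (SE; edgeR adjusted p = 0.0051). The call was lost without Chat-neg replicate 4 (edgeR adjusted p = 0.0633). A processed pseudogene, Mrpl23-ps1, matches a Mrpl23 transcript at 100% identity over 507 bases and held 14 counts in all against 234 for Mrpl23, so that reads may be split between them.

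Mrpl37 (chr4:107055874-107066868, minus strand) encodes a large-subunit protein specific to mitochondria. Its level was 46.5, 42.0, 31.9 and 52.9 CPM in Chat-neg and 8.71, 22.4, 11.8 and 14.3 CPM in Chat-pos. The groups did not overlap, the gene fell by 1.54 on the log2 scale (SE 0.34, edgeR adjusted p = 0.0050), and it passed in all 8 fits that left out a library. Mrps28 (chr3:8802146-8923918, minus strand), the small-subunit protein that corresponds to bacterial S1, was the only Mrps gene that was called. It was measured at 23.3, 28.0, 27.6 and 43.3 CPM in Chat-neg and at 9.33, 11.6, 14.6 and 7.99 CPM in Chat-pos, with no overlap, and the Chat-neg replicate 1 value rests on 2 counts. Its log2 difference was -1.53 ± 0.37 (edgeR adjusted p = 0.0095), and it did not pass without Chat-neg replicate 4 (edgeR adjusted p = 0.0799). DESeq2 gave no adjusted p for it.

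Mrpl13 and Mrpl12 are large-subunit proteins with bacterial counterparts, and Mrpl12 forms the stalk that recruits translation factors. Mrpl13 (chr15:55534094-55557748, minus strand) stood at 34.9, 89.2, 101 and 138 CPM in Chat-neg and 37.9, 36.7, 56.2 and 35.3 CPM in Chat-pos. Chat-neg replicate 1, with 3 counts, lay just below the Chat-pos values, and the other Chat-neg libraries lay above all of them. Its log2 difference of -1.27 ± 0.26 had the smallest adjusted p of the 77 genes (0.0026, edgeR) and passed in all 8 fits that left out a library. Mrpl12 (chr11:120484613-120489065, plus strand) was at 69.8, 87.9, 98.4 and 114 CPM in Chat-neg and at 45.4, 49.3, 45.4 and 54.3 CPM in Chat-pos. The Chat-pos libraries were close to each other and below every Chat-neg library (-0.99 ± 0.22, edgeR adjusted p = 0.0062), again in all 8 such fits. Mrpl13 shares 4.16% of its exon bases with Mtbp, and Mrpl12 13.1% with Gm16755, both on the opposite strand and with 13 and 7 counts in all.

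Mrpl35 and Mrpl34 also have bacterial counterparts. Mrpl35 (chr6:71812997-71826969, minus strand) was at 93.1, 124, 98.4 and 154 CPM in Chat-neg and at 52.3, 53.3, 58.1 and 78.7 CPM in Chat-pos, without overlap. It fell by 0.99 on the log2 scale (SE 0.23, edgeR adjusted p = 0.0067, or 0.0628 without Chat-neg replicate 4). Mrpl34 (chr8:71464959-71465747, plus strand) was at 140, 124, 165 and 143 CPM in Chat-neg and at 90.2, 73.5, 61.4 and 109 CPM in Chat-pos. Its groups did not overlap, its log2 difference was -0.78 ± 0.21 (edgeR adjusted p = 0.0237), and it passed in 3 of the 8 fits that left out a library, the exceptions being those that dropped a Chat-neg library other than replicate 1, or replicate 2 or 3 of Chat-pos.

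Mrpl42, Mrpl52 and Mrpl54 belong to the mitochondria-specific proteins of the large subunit. Mrpl42 (chr10:95480805-95501940, minus strand) was at 256, 245, 280 and 323 CPM in Chat-neg and at 105, 129, 143 and 190 CPM in Chat-pos. It rests on 1952 counts in all, the groups did not overlap, and it fell by 0.96 on the log2 scale (SE 0.21, edgeR adjusted p = 0.0047), in all 8 fits that left out a library. Mrpl52 (chr14:54426909-54429756, plus strand) was at 198, 264, 271 and 274 CPM in Chat-neg and at 189.7, 133, 98.3 and 135 CPM in Chat-pos. Chat-neg replicate 1 and Chat-pos replicate 1 came close to each other without crossing (-0.89 ± 0.21, edgeR adjusted p = 0.0088), and 3 of the 8 fits (dropping replicate 2 of Chat-neg, or replicate 3 of either gate) did not call it. Mrpl54 (chr10:81264713-81266934, minus strand) was at 116.3, 158, 139 and 160 CPM in Chat-neg and at 58.5, 116.0, 82.7 and 95.9 CPM in Chat-pos, so that its groups nearly touched. Its log2 difference of -0.73 ± 0.22 (edgeR adjusted p = 0.0368) passed only in the fits without Chat-neg replicate 1 and without Chat-pos replicate 2.

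**Figure D2:**
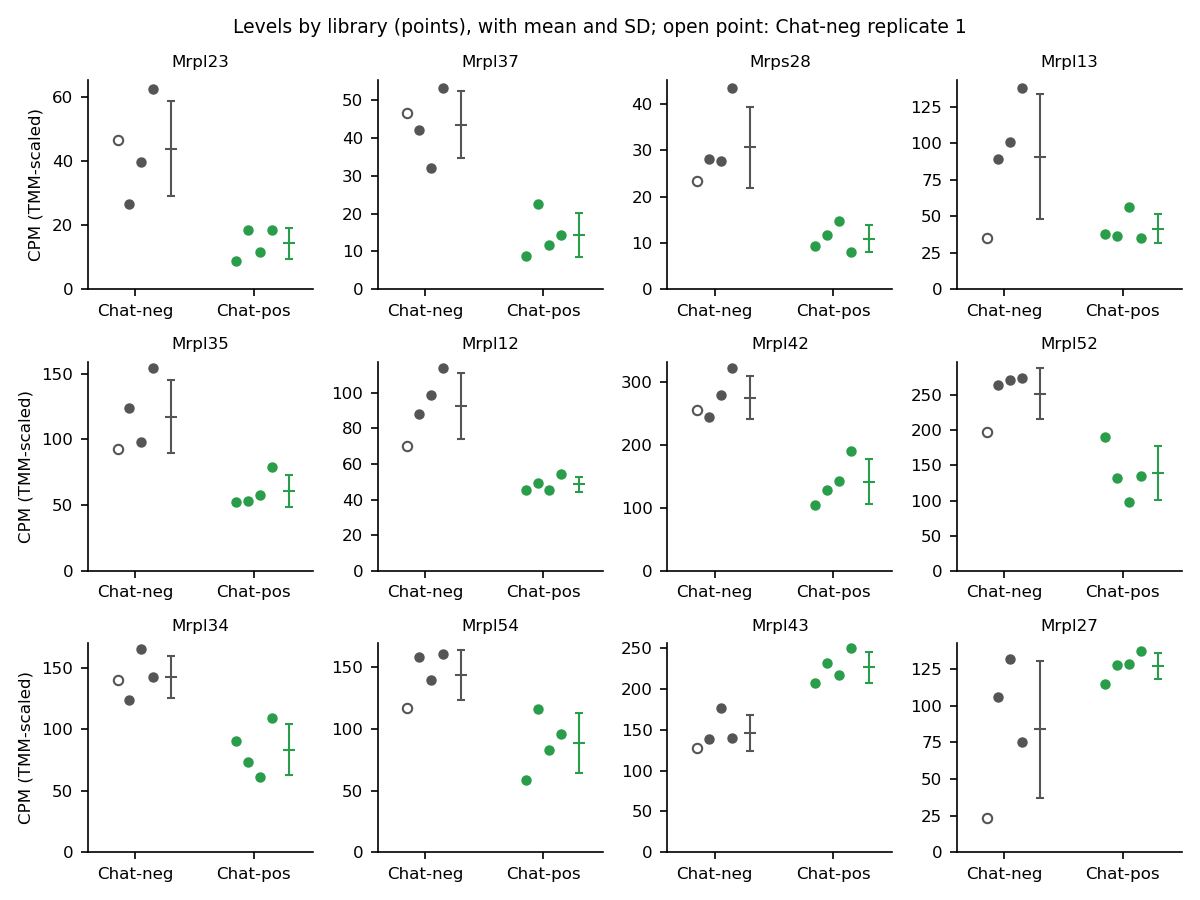
Level in CPM (y axis, from 0) in each library of the Chat-neg and Chat-pos gates (x axis) for the 10 genes that fell and for Mrpl43 and Mrpl27, with mean and SD (n = 4) and Chat-neg replicate 1 as an open point. The Chat-pos points lie below all Chat-neg points in 9 of the 10 panels of called genes, Mrpl13 being the exception, and above them in the Mrpl43 panel.

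Mrpl43 ran the other way. The gene was named at the outset as one against the trend, with earlier results of these data known. Its direction and p-values are therefore a description and not separate evidence. It encodes a mitochondria-specific protein of the large subunit and lies at chr19:45004829-45006442 on the minus strand. Its level was 128, 139, 177 and 139.6 CPM in Chat-neg and 207, 232, 216 and 249.5 CPM in Chat-pos, so that every Chat-pos library was above every Chat-neg library. The log2 difference was 0.60 ± 0.20 and did not pass (edgeR adjusted p = 0.0626). It passed in 4 of 20 alternatives, with RLE scaling, DESeq2, limma-voom and without Chat-neg replicate 1, and its adjusted p ran from 0.0288 to 0.218 over the 20. Mrpl43 shares 507 bases (33.4% of its exon bases) with Twnk, the mitochondrial DNA helicase on the opposite strand. Without strand, reads from the shared stretch cannot be told apart, and how they were counted is not given. Twnk held 81 counts in all against 2312 for Mrpl43, and the log2 difference of Twnk was -0.38 ± 0.58 (edgeR adjusted p = 0.77). The part of the shared stretch in the Mrpl43 values was not tested.

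A ratio of raw counts within a library does not depend on the scaling. Mrpl43 made up 2.93%, 2.31%, 2.65% and 2.01% of all counts on the 78 genes in Chat-neg replicates 1 to 4. In Chat-pos replicates 1 to 4 it made up 4.36%, 4.84%, 4.49% and 4.47%. Its ratio to Mrpl42, another mitochondria-specific protein of the same subunit, was 0.50, 0.57, 0.63 and 0.43 in the Chat-neg libraries, while the Chat-pos libraries had ratios of 1.96, 1.79, 1.51 and 1.31. The ratios did not overlap, and Mrpl42 had the higher count in every Chat-neg library and Mrpl43 in every Chat-pos library. Mrpl43 was picked with earlier results known, and Mrpl42 after its values were seen. The shares and the ratio are therefore given as a description without a test.

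Mrpl27 and Mrps34 had the next highest log2 differences, and neither passed. Mrpl27, near the site of peptide bond formation in the large subunit, was at 23.3, 106, 132 and 75.4 CPM in Chat-neg and at 115.1, 128, 128.5 and 137 CPM in Chat-pos. The Chat-neg values spread widely and overlapped with Chat-pos (0.40 ± 0.24, edgeR adjusted p = 0.356), and the lowest rests on 2 counts. Mrps34, a mitochondria-specific small-subunit protein, was at 0, 6.37, 9.50 and 14.4 CPM in Chat-neg and at 11.8, 10.3, 9.45 and 15.99 CPM in Chat-pos, with overlap (0.35 ± 0.49, edgeR adjusted p = 0.743). It shares 63.4% of its exon bases with Mapk8ip3 on the opposite strand and 37.0% with Nme3 on its own strand, so that its reads are uncertain. In all, 17 of the 77 genes had a log2 difference above 0.

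The 300 bases around the start of some genes in the RefSeq set for GRCm38.p6 (250 before and 50 from the start on) are shown because they place known promoter motifs next to genes that fell and next to Mrpl43. Motifs were searched on both strands in the letters GCGCA followed by any base and GCGC for NRF1, a factor known for nuclear genes of mitochondria, CCGGAAG for ETS factors, AAGATGGC for YY1 and GGGCGG for Sp1, and a base may count for more than 1 motif. Capitals mark a match on either strand. The windows shown are a choice among the called genes, so they do not show a shared motif. The window of Mrpl23, which had the lowest log2 difference, is not printed. It holds 2 Sp1 matches and no match to the other motifs. Mrpl37 (chr4:107066817-107067116, minus strand) holds the YY1 letters just after its start and 2 Sp1 matches. Mrpl42 (chr10:95501900-95502199, minus strand) holds the YY1 letters at nearly the same distance and 1 Sp1 match. Mrpl12 (chr11:120484387-120484686, plus strand) holds an NRF1 match. Mrpl43 (chr19:45006393-45006692, minus strand) holds 2 ETS and 2 Sp1 matches, and 215 of its 300 bases also lie in the window of Twnk, which starts close by on the other strand.
Mrpl37: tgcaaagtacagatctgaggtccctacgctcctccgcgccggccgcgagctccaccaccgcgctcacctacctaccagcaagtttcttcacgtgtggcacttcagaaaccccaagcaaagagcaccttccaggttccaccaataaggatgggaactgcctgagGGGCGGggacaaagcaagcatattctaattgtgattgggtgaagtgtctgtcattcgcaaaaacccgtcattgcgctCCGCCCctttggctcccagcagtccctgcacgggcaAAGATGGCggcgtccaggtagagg
Mrpl42: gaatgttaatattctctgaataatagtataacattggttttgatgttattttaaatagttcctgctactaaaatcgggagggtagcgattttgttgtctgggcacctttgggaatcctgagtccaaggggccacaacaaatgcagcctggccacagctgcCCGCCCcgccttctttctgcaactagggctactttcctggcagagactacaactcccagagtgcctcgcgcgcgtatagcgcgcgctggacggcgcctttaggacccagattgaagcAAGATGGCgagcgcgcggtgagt
Mrpl12: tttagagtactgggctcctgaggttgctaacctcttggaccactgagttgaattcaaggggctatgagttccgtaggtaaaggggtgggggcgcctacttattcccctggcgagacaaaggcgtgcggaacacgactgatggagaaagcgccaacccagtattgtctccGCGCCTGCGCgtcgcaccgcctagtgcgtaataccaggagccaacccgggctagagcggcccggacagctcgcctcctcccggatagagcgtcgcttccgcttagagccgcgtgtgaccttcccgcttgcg
Mrpl43: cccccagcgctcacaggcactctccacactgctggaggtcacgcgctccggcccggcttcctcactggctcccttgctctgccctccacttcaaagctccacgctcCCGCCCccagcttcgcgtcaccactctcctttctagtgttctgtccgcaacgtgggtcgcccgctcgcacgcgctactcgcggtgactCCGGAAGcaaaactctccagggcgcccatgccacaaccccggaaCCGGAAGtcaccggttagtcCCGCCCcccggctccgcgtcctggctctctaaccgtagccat

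Windows were found for 69 of the 78 genes and for 7 of the 10 that fell. The NRF1 letters stood in 18.8% of the 69 genes and in 12.5% of all tested genes with a window. The ETS letters stood in 37.7% against 22.6%, the YY1 letters in 17.4% against 6.18% and the Sp1 letters in 49.3% against 70.3%. Among the 7 called genes the YY1 and the Sp1 letters each stood in 3, the ETS letters in 2 and the NRF1 letters in 1. A match describes the letters of the window and not a bound site.

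The Mrpl and the Mrps genes had similar medians. Of 48 Mrpl genes tested, 9 fell (18.8%), 39 were below 0 and the median log2 difference was -0.38. Of 29 Mrps genes, 1 fell (3.45%), 21 were below 0 and the median was -0.43. Over all genes tested 2.87% fell and 51.5% were below 0, so the Mrps share that fell was near that of all genes. The Mrps genes had fewer reads, with a median level of 41.3 CPM and a median SE of 0.30, against 66.7 CPM and 0.24 for the Mrpl genes. Whether the share of called genes differs between the families was not tested. Mrps18a and Mrps30 belong to the large subunit in known structures despite their names, and Mrps36 is in neither subunit in those structures. Counted that way, with Mrps36 left out, 9 of 50 large-subunit and 1 of 26 small-subunit genes fell.

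Grouping by evolutionary origin gave similar medians. The counts below stand beside 2.87% of all genes that fell and 9.88% that were lower at an unadjusted p under 0.05. In the large subunit, 5 of 30 proteins with bacterial counterparts fell (median -0.34), as did 4 of 20 mitochondria-specific ones (median -0.44). In the small subunit 1 of 16 proteins with bacterial counterparts fell (median -0.43). None of its 10 mitochondria-specific proteins was called by edgeR (median -0.42), DESeq2 or limma-voom, and 1 was below 0 at an unadjusted p under 0.05. By site, 1 of 3 stalk proteins fell (Mrpl12), and Mrpl11 of the stalk did not pass (-1.06 ± 0.34, edgeR adjusted p = 0.0613). Of 6 proteins at the exit tunnel 1 fell (Mrpl23). The 7 proteins of the central protuberance had a median of -0.21, and none was called by edgeR, DESeq2 or limma-voom, with 1 lower at an unadjusted p under 0.05.

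Summed over the genes of a family, the balance between the subunits stayed close in all libraries. The 78 genes summed to 4363, 6012, 6688 and 6928 CPM in Chat-neg replicates 1 to 4 and to 4736, 4788, 4819 and 5585 CPM in Chat-pos replicates 1 to 4. The groups overlapped through Chat-neg replicate 1, and the other Chat-neg libraries were above all Chat-pos libraries. As a share of all counts in named genes, without scaling, the Chat-neg libraries had 0.428%, 0.602%, 0.658% and 0.707% and the Chat-pos libraries 0.433%, 0.448%, 0.466% and 0.522%, in the same arrangement. The Mrpl genes made up 70.2% to 72.0% of the summed level in Chat-neg and 69.4% to 70.6% in Chat-pos, and these ranges overlapped.

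Reads on the rRNAs of the mitoribosome were counted in the same libraries. How far these reads follow the amount of rRNA was not tested. The small-subunit rRNA mt-Rnr1 was at 20988, 11729, 9684 and 5691 CPM in Chat-neg and at 8534, 4761, 5517 and 4440 CPM in Chat-pos. The large-subunit rRNA mt-Rnr2 was at 47014, 33459, 30010 and 20007 CPM in Chat-neg and at 28973, 17766, 18389 and 16192 CPM in Chat-pos. Both overlapped between the gates and neither passed the test, with log2 differences of -1.05 ± 0.36 (edgeR adjusted p = 0.124) and -0.68 ± 0.24 (edgeR adjusted p = 0.0899). Chat-neg replicate 1 had the highest level of both rRNAs and the lowest sum of the protein genes, and Chat-neg replicate 4 the reverse among the Chat-neg libraries. Background reads on receptor genes were also highest in Chat-neg replicate 1, at 4200 CPM against 160 to 784 CPM in the other libraries.

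**Figure D3:**
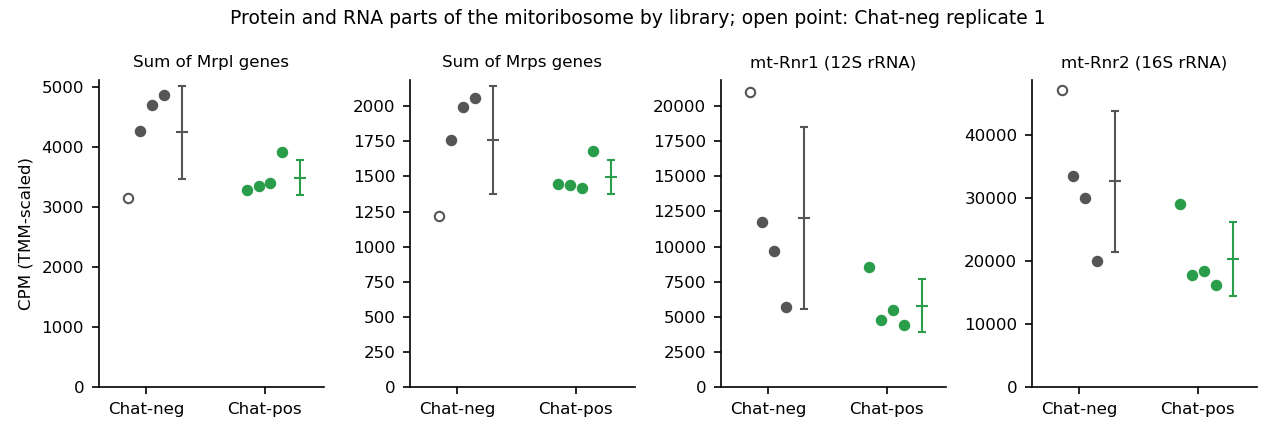
Summed level of the Mrpl genes, summed level of the Mrps genes, and levels of mt-Rnr1 and mt-Rnr2, all in CPM (y axes, from 0), in each library of both gates (x axis), with mean and SD (n = 4) and Chat-neg replicate 1 as an open point. That library has the lowest protein sums, at 3141 and 1222 CPM, and the highest rRNA levels.

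Level per exon length differed widely among the 77 genes, from 1.66 CPM per kb for Mrps5 to 227 CPM per kb for Mrps21, with a median of 22.5. Exon length here joins the exons of all annotated transcripts of a gene (6578 bases for Mrps5). It can exceed the length of the mRNA present, so the ranking depends on the annotation. Mrps21, a small-subunit protein with a bacterial counterpart, was followed by Mrpl14 (194 CPM per kb), a large-subunit protein at the interface of the subunits, and by Mrpl34 (186 CPM per kb). Mrps21 stood at 151 to 245.5 CPM in Chat-neg and 121 to 164 CPM in Chat-pos, overlapped between the gates and did not pass (-0.43 ± 0.20, edgeR adjusted p = 0.217). Mrpl14 stood at 116.3 to 204 CPM in Chat-neg and 166 to 224 CPM in Chat-pos, with overlap (0.11 ± 0.20, edgeR adjusted p = 0.821). The coefficient of variation between libraries had a median over the 77 genes of 32.0% in Chat-neg and 22.1% in Chat-pos. Mrpl53, the gene that was not tested, had 1 count in all, in Chat-pos replicate 4. It shares 88.0% of its exon bases with Gm42688 on the same strand, which also had 1 count. Of the 78 genes, 33 share exon bases with another annotated gene, 8 of them on the same strand, and 20 have near-identical pseudogene copies. The copies found in the count table held at most 14 counts each, and the copy of Mrps10 was not matched to a count.

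The genes are short, and length was related to the difference over all genes. All genes tested were divided by exon length into 5 bins of nearly equal size. The shortest bin held 38 of the 77 genes, and 5.73% of all its genes fell in Chat-pos, against 1.69% in the longest bin. The median log2 difference of all genes ran from 0.04 in the shortest bin to -0.11 in the longest. The median of the mitochondrial ribosomal protein genes was -0.39, -0.35, -0.56, -0.42 and -0.53 from the shortest to the longest bin. With the length trend of each library removed, 13 genes were called lower and the median was -0.41, while over all genes 313 were called lower in place of 256.

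**Figure D4:**
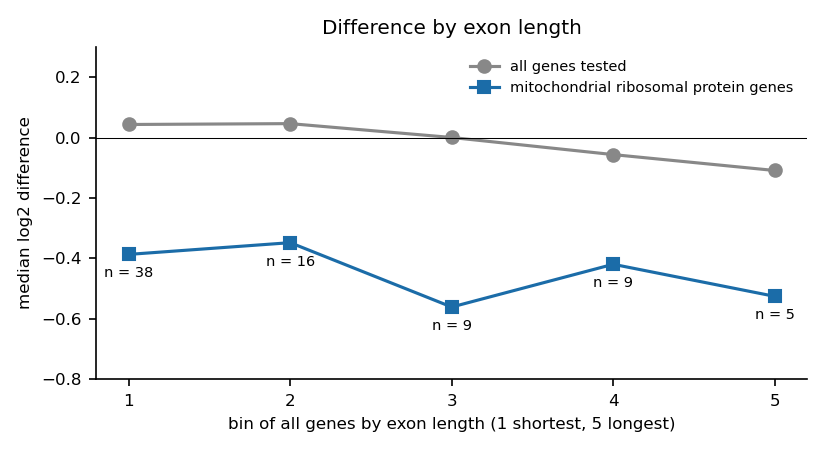
Median log2 difference between Chat-pos and Chat-neg (y axis) in 5 bins of all genes tested by exon length (x axis), for all genes (grey circles) and for the mitochondrial ribosomal protein genes (blue squares, with their number). The squares lie below the circles in every bin, between -0.56 and -0.35.

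Other parts of mitochondrial gene expression were described by the same test, by which 2.87% of all genes fell and 3.62% rose. Of 15 tested translation factors and mRNA-binding proteins 1 fell, Lrpprc, which binds and stabilises mitochondrial mRNAs, at 81.4, 24.2, 26.8 and 38.5 CPM in Chat-neg and 14.3, 17.5, 7.09 and 15.1 CPM in Chat-pos. Its groups did not overlap (-1.33 ± 0.39, edgeR adjusted p = 0.0344), but it passed in only 1 of the 8 fits that left out a library, the one without Chat-pos replicate 2. The median of these 15 was -0.44. Of 15 tested assembly factors 1 rose, Mpv17l2, an inner-membrane protein needed for mitoribosome assembly, from 34.9, 56.1, 62.2 and 81.8 CPM to 108, 131, 94.0 and 132.5 CPM. It did not overlap (0.88 ± 0.23, edgeR adjusted p = 0.0164), and passed in 4 of the 8 fits, the exceptions being those that dropped replicate 2 or 3 of Chat-neg, or replicate 2 or 4 of Chat-pos. The median of the assembly factors was -0.26.

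Among 23 import genes 2 fell, against 2.87% of all genes, and the median was -0.33. Hspa9, the mitochondrial Hsp70 that drives import, was at 58.2, 85.4, 59.6 and 123.5 CPM in Chat-neg and 19.9, 40.3, 47.3 and 37.0 CPM in Chat-pos, without overlap (-1.22 ± 0.27, edgeR adjusted p = 0.0066, lost without Chat-neg replicate 4). Tomm5, a small part of the outer-membrane entry pore, was at 23.3, 40.8, 69.9 and 88.2 CPM in Chat-neg and 23.6, 29.6, 26.5 and 28.6 CPM in Chat-pos, with Chat-neg replicate 1 just below Chat-pos and the other Chat-neg libraries above it (-1.19 ± 0.28, edgeR adjusted p = 0.0083, lost without Chat-neg replicate 3 or 4). No gene passed in edgeR among 12 aminoacyl-tRNA synthetases of mitochondria (median -0.43), 11 genes of mitochondrial transcription and DNA upkeep (median -0.17) and 5 mitoribosome proteins with other names such as Dap3 and Aurkaip1 (median -0.25). In these lists 3, 1 and 2 genes were lower at an unadjusted p under 0.05 and none higher, against 9.88% and 10.9% of all genes. DESeq2 called 1 synthetase lower, and limma-voom called none.

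Beside these lists stood 77 cytoplasmic ribosomal protein genes, of which 53 fell (median -0.97), and 75 nuclear-encoded genes of oxidative phosphorylation, of which 16 fell (median -0.34). Over all genes 2.87% fell and 3.62% rose. Of 9 tested mRNAs encoded in mitochondrial DNA, which the mitoribosome translates, 2 rose and the median was 0.21. COX1, a core subunit of cytochrome c oxidase, was at 7981 to 11010.5 CPM in Chat-neg and 15893 to 27776 CPM in Chat-pos (1.34 ± 0.22, edgeR adjusted p = 0.00028). CYTB, the cytochrome of complex III, was at 12286 to 20105 CPM in Chat-neg and 23179 to 32832 CPM in Chat-pos (0.85 ± 0.21, edgeR adjusted p = 0.0106), without overlap for either. CYTB passed in 5 of the 8 fits, and not in those that dropped replicate 2 of either gate or replicate 4 of Chat-neg. The other 7 (COX2, ND1, ND2, ND3, ND4, ND5 and ND6) did not pass in edgeR and had log2 differences from -0.19 to 0.58. ND4, a complex I subunit (0.58 ± 0.20, edgeR adjusted p = 0.0829), was called higher by DESeq2 (adjusted p = 0.0051) and limma-voom (adjusted p = 0.0326), and ND1 and ND4 were also higher without overlap. Of the 13 mRNAs, 4 were not tested. COX2 and ND3 rest on 99 and 154 counts in all, where the other 7 tested hold 15839 to 286932, and how reads were assigned to them is not given in the sources used here.

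**Figure D5:**
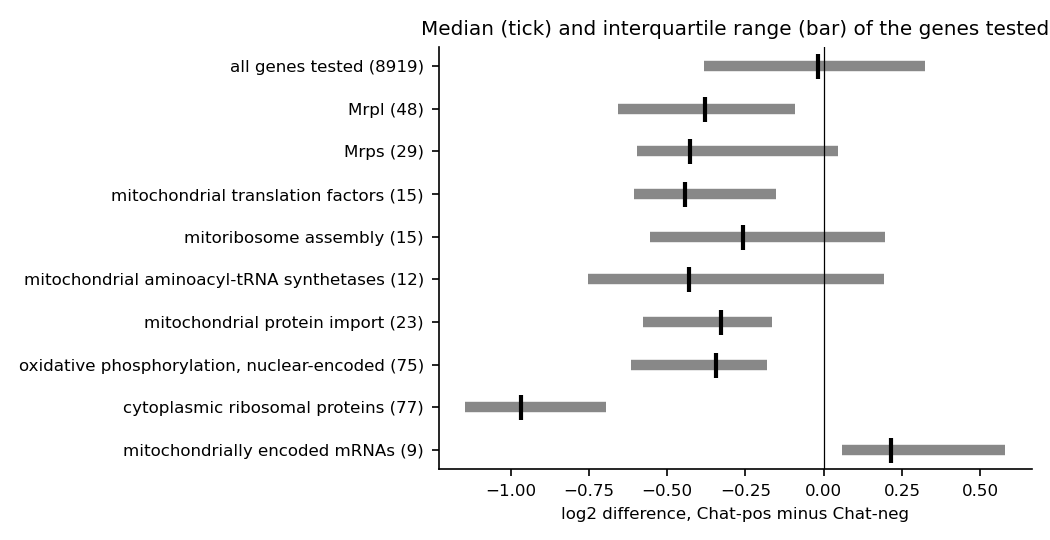
Median (tick) and interquartile range (bar) of the log2 difference between Chat-pos and Chat-neg (x axis) for the genes tested in each list (y axis, number in brackets). The Mrpl and Mrps medians of -0.38 and -0.43 lie between those of all genes (-0.02) and of the cytoplasmic ribosomal proteins (-0.97).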

How the data were processed

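Sorted cells were lysed with SMARTer v4 reagents, and Nextera XT libraries of the cDNA gave single reads of 74 cycles, per the labels' protocols. Strand and molecular identity are not kept by such libraries, so limits from counts cover counting error only. The authors deposited raw counts per gene in 1 table, on build GRCm38 according to the submitters' processing notes. Aligner, counter and annotation: not given in the sources used here. Of 53806 rows, 36 had no gene name and held 67.8% to 88.4% of counts in Chat-neg and 58.6% to 64.6% in Chat-pos, without overlap. They were left out, and 229 rows sharing 114 symbols were summed.

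All 8919 genes that passed the filterByExpr filter entered edgeR 4.0.16 under R 4.3.3 (TMM scaling, a robust quasi-likelihood model of group alone, Benjamini-Hochberg adjustment, threshold 0.05). Of the 78 genes, 65 reached the filter's floor of 6.82 CPM in all 8 libraries, including all 10 that were called. This floor was applied to CPM of all named genes without TMM scaling. In Chat-neg replicate 1 it is met by 1 count (11.6 CPM after scaling), so it says little there. All other CPM are counts per 1000000 of the TMM-scaled total of tested genes. Standard errors were derived from each log2 difference and the F statistic of its test. The fit was tested on simulated counts with the same spread for every gene. Differences in background or cell mixture between libraries were not simulated, so that test does not cover them. Alternatives used limma 3.58.1 and DESeq2 1.42.0, among others. Positions, exon lengths and overlaps came from GENCODE M21, promoters from RefSeq, and near-identical pseudogenes from blastn 2.17.0 (at least 95% identity over 74 bases). All same-group library pairs differed by more than counting noise.

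Genes named were all called members, the 3 with the highest log2 difference, Mrpl43, the 3 with the highest CPM per kb, called genes of the other lists (at most 3 each) and the mitochondrial mRNAs; others were chosen after their values were seen. The members, Mrpl43 and the lists were chosen with earlier results of these data known.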

Additional observations from a re-analysis of the deposited data

Results flagged for a closer look

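Of 68 groups of 4 values tested, 5 had a value far from the other 3 by Dixon's criterion, and chance gives about 1 in 20 groups. Mrpl13 stood at 56.2 CPM in Chat-pos replicate 3 against 35.3 to 37.9 CPM in the other Chat-pos libraries. Mrpl52 stood at 198 CPM in Chat-neg replicate 1 against 263.7 to 274.4 CPM. ND1, a mitochondrially encoded subunit of complex I, stood at 7605 CPM in Chat-neg replicate 4 against 8388 to 8533 CPM. In Chat-pos replicate 4 the 78 genes summed to 5585 CPM against 4736 to 4819 CPM, and the Mrps genes to 1677 CPM against 1418 to 1447 CPM.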

How the results depend on the processing

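The median log2 difference of the mitochondrial ribosomal protein genes stayed below 0 in all alternatives run, from -0.53 with total count scaling to -0.18 without a filter on low counts, and the 10 called genes stayed below 0 wherever they had an adjusted p (DESeq2 gave none for Mrps28). Total count scaling moved the median of all genes to -0.14, and no filter moved it to -0.34, so that without a filter the genes lay above the median of all genes. The number of genes called lower was 3 without a filter (Mrpl13, Mrpl23 and Mrpl37), 4 without the Paneth-rich libraries, and 5 to 13 when each library was left out in turn, with the lowest count on dropping replicate 4 of Chat-neg and the highest on dropping replicate 1. The number called higher was 1 (Mrpl43) with RLE scaling, DESeq2 and limma-voom, and 0 to 1 when each library was left out. Among all genes, 369 were higher with RLE scaling, 397 with DESeq2 and 355 with limma-voom. Over all genes, 143 were lower without a filter, 402 with limma-voom and 86 without the Paneth-rich libraries. Leaving out each library gave 110 to 309 lower and 138 to 360 higher, and total count scaling gave 225 higher and 380 lower. Same-numbered libraries did not deviate together (correlations of -0.02 to 0.05). With such uneven depth this cannot show whether they came from the same animals, and the labels do not say. With a replicate block, 9 of the genes were called lower and 0 higher, against 230 and 290 over all genes. With the block and the length trend removed, 11 were called lower, against 282 over all genes. Library totals over all named genes, an alternative chosen after seeing the data, gave 10 lower, against 238 over all genes. No alternative called more than 1 of the mitochondrial ribosomal protein genes higher. The cause of these shifts was not tested. Depth was lowest in Chat-neg replicate 1, and every Chat-neg library was shallower than every Chat-pos library. The part of depth in the differences was not tested.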
